A study of Mus musculus with 3 samples.

Results

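Antibody isotype is set by the constant gene of the immunoglobulin heavy chain. The 8 constant genes of the mouse heavy-chain locus (Ighm, Ighd, Ighg3, Ighg1, Ighg2b, Ighg2c, Ighe and Igha) and Jchain, which encodes the joining chain of secreted IgM and IgA, were followed through the immune cells of the mouse aorta. These 9 genes were taken by name from the 32285 genes of the deposited count matrices, and all 9 were found. No rule on their values was used, but earlier results of these data were known when they were chosen. Each was described by B cell subset, in plasma cells 1 cell at a time, and in cell classes that do not make antibody, where its level served as a measure of free RNA.

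The study compared aortic immune cells of ApoE-/- mice on the C57BL/6J background with droplet-based single-cell RNA-seq, and each of its 3 groups is 1 library. The Control mice carried the ApoE deletion and nothing else named in the labels, the HHcy group drank water with Hcy at 1.8 g/L for 4 weeks, and the WD group is labelled as western diet for 4 weeks. HHcy is not spelled out in the labels, and the series title speaks of homocysteinemia. Live, nucleated CD45+ cells were sorted from whole digested aortas with their adventitia, and the number of mice in a library, their age and their sex are not given in the sources used here. With 1 library per group no difference between groups could be tested, so every interval below is a 95% interval of counting error only, in exact Poisson form for levels, exact binomial form for ratios of levels and Clopper-Pearson form for shares.

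A developing B cell makes Ighm first, and a mature naive B cell makes IgM and IgD together from a single long transcript, by alternative processing of its RNA. Class switching later joins the same variable region to a gamma, epsilon or alpha constant gene and deletes the DNA between. Plasma cells, the antibody-secreting end stage, devote a large part of their messenger RNA to a single heavy chain, a single light chain and Jchain. In atherosclerosis, B1 cells are best known as a source of natural IgM, while germinal centres and plasma cells supply switched antibodies.

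In mm10 the constant genes lay on the minus strand at chr12:113254830-113422730, a span of 167.9 kb, and in the direction of transcription their order was Ighm, Ighd, Ighg3, Ighg1, Ighg2b, Ighg2c, Ighe and Igha. Jchain lay at chr5:88519809-88527891, also on the minus strand. All 9 gene identifiers of the files matched the GENCODE M21 annotation of that build. What separates the genes that use the joining chain from those that do not is visible at the end of the secreted protein, so the last 60 coding bases of 3 secreted transcripts are shown, 5′ to 3′ and read from the GENCODE transcripts. Capitals mark a cysteine codon in the next-to-last position, the residue through which IgM and IgA bind the joining chain.
Ighm-201, chr12:113420870-113420929, minus strand: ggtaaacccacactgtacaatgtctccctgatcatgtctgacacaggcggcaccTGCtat
Igha-201, chr12:113258771-113258830, minus strand: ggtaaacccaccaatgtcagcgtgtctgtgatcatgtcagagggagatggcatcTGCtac
Ighg2c-202, chr12:113287392-113287451, minus strand: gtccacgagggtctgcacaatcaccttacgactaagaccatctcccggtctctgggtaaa
The cysteine codon stood in the 2 tails of Ighm and Igha and was absent from that position of Ighg2c. The counts do not tell secreted from membrane-bound transcripts, since reads were summed per gene. They also do not tell a switched transcript from the germline transcript that an unswitched cell can make from the same constant gene. Similar sequence limits how far 2 genes can be told apart: 5.49% of the 50-base windows of Ighg2c and 4.15% of those of Ighg2b occurred in another of the 9 genes, mostly in each other, against 1.58% for Ighg3, 0.393% for Ighg1 and 0% for the others. The windows covered whole transcripts, while molecules were counted at the 3′ end, where the overlap can be larger. The transcripts Ighg2b-202 and Ighg2c-201 had the same last 60 coding bases.

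The libraries held between 66789257 and 105180370 unique molecular identifiers (UMIs, each a tag of 1 captured RNA molecule) in 7512 to 9753 barcodes, with a median of 6664 to 7678 UMIs per barcode. After filters on genes and mitochondrial UMIs and removal of barcodes with markers of 2 or more lineages, 5410 Control cells, 6463 cells of the library labelled HHcy and 5396 WD cells were used. Doublet removal took 10.4%, 20.7% and 19.6% of the barcodes that passed the other filters. Apoe, disrupted in these mice by their label, had a level of 16.3 CPM (UMIs of the gene scaled to 1000000 UMIs of all genes) in Control, 19.3 in WD and 374 in the library labelled HHcy, whose value goes against its label. Every direction below that involves this library rests on a library with that discrepancy, whose source was not tested. Between 20 and 24 barcodes were shared by each pair of libraries. Classes were named from fixed marker lists that hold no immunoglobulin gene, and immunoglobulin genes and Jchain were kept out of the clustering, so the 9 genes did not help to choose the cells in which they are described. Cd79a, a subunit of the B cell receptor, was detected in 98.8% to 99.3% of B cell-like cells, against 10.0% to 18.5% of the pooled macrophage/monocyte-, neutrophil- and conventional dendritic cell-like cells.

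The 9 genes took 0.276% of all UMIs in Control, 0.662% for the library labelled HHcy and 0.198% in WD, and a handful of barcodes held most of the switched ones. Ighg2c had 13300 UMIs in Control, 105902 for the library labelled HHcy and 10004 in WD, of which the 10 richest barcodes held 95.8%, 54.1% and 93.3%. For Igha these 10 barcodes held 84.5% to 95.4% of the 7866, 46716 and 16096 UMIs. Ighm and Ighd were spread more widely, and the 10 richest barcodes held 13.6% to 22.3% of Ighm and 1.22% to 3.03% of Ighd. The removal of mixed barcodes weighs on the same genes. Labelled HHcy, 67.2% of Igha, 53.1% of Ighg2c and 51.0% of Jchain UMIs lay in barcodes left out as doublets. The same 3 genes had 1.04%, 1.16% and 22.4% there in Control, and 34.8%, 39.9% and 23.5% in WD. Of the barcodes with at least 12 of 13 plasma cell markers, this removal took 2 of 10 in Control, 42 of 89 for the library labelled HHcy and 4 of 14 in WD. Plasma cell-like cells that remained numbered 9 of 5410 cells (0.166%, 0.0761% to 0.316%), 45 of 6463 (0.696%, 0.508% to 0.931%) and 9 of 5396 (0.167%, 0.0763% to 0.316%). These shares are set in part by the CD45 gate and the doublet rule.

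**Figure D1:**
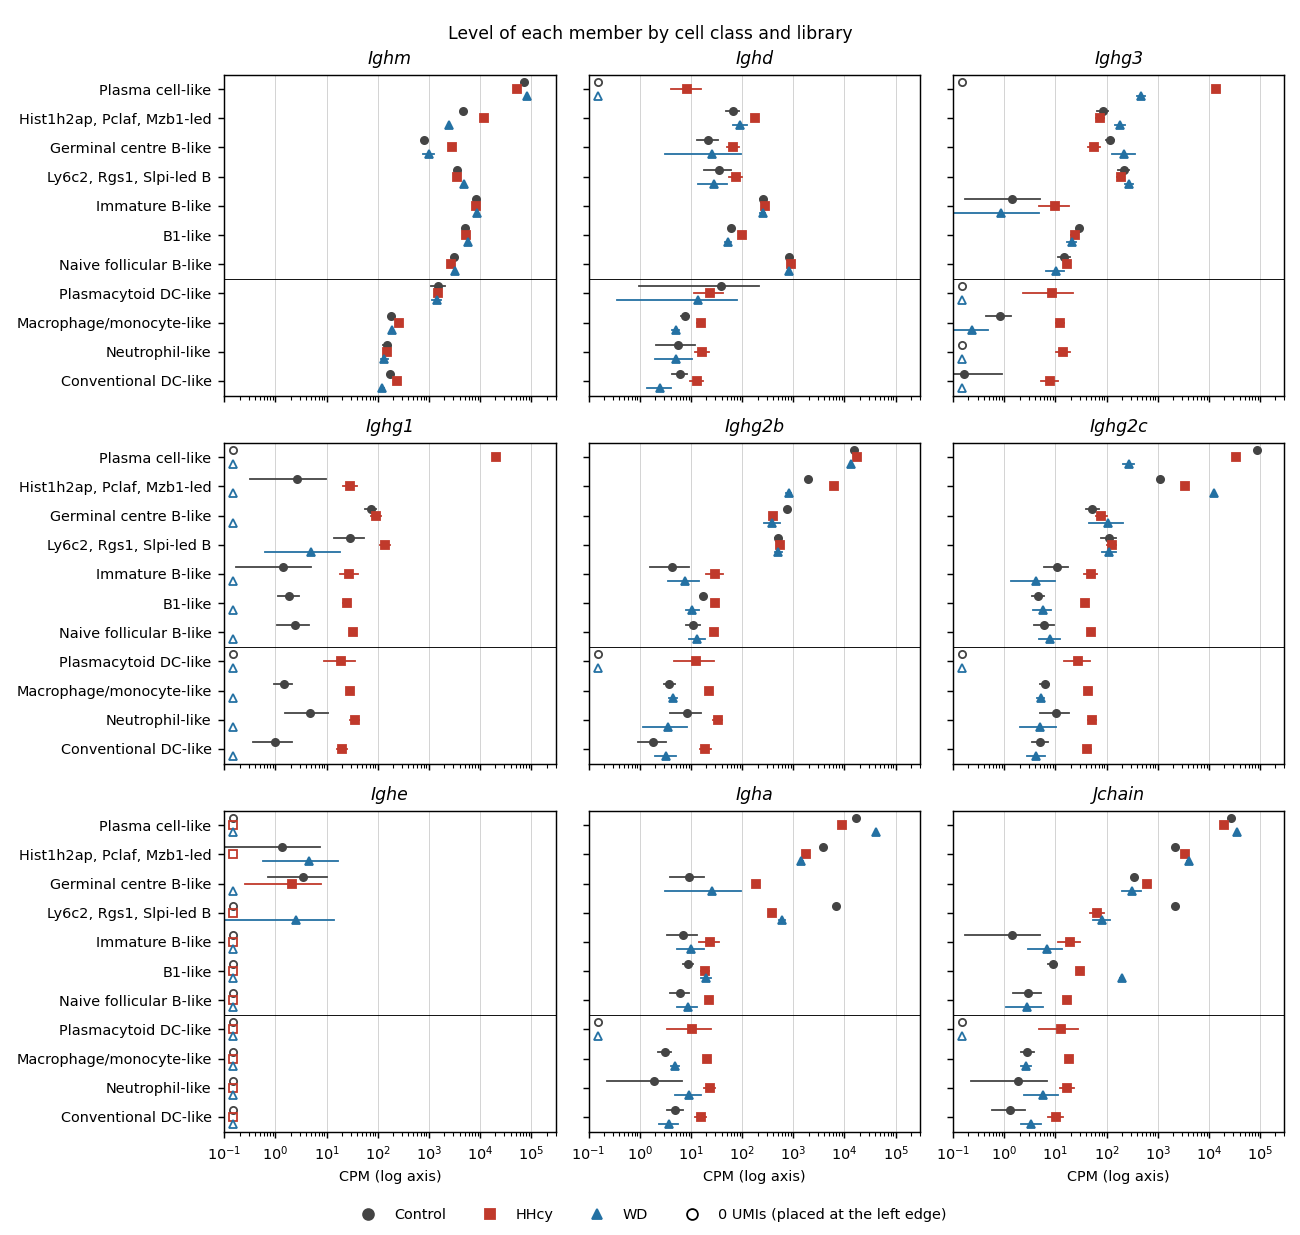
Level of each gene in CPM (log axis) by cell class, with 1 point per library (circles Control, squares HHcy, triangles WD), 95% Poisson intervals (cut at the left edge where they run past it) and open symbols for 0 UMIs. Ighm spans from 267 CPM or less in macrophage/monocyte-like cells to at least 52525 in plasma cell-like cells, and the squares of the switched genes sit right of the other symbols in the classes below the line.

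Ighm, the constant gene of IgM, was highest in immature cells among the immature, B1-like and naive follicular B-like subsets. In immature B-like cells, led by Vpreb3 and Sox4, its level was 8539 CPM in Control, 8462 for the library labelled HHcy and 8665 in WD. B1-like cells followed with 5197, 5408 and 5914 CPM, and naive follicular B-like cells, led by Fcer2a and Cr2, with 3042, 2747 and 3186 CPM. The order of these subsets was the same in each library, and the gaps between them were larger than the differences between libraries within a subset. With each cell thinned to 1000 UMIs the order held, and the median cell held 8 Ighm UMIs in the immature subset of every library, 5 in the B1-like subset and 2 or 3 in the naive subset. Germinal centre B-like cells had 818, 2853 and 992 CPM of Ighm, from 51, 36 and 6 cells. Plasma cell-like cells reached 71025, 52525 and 82292 CPM.

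Ighd, the constant gene of IgD, was higher in naive follicular B-like cells than in immature and B1-like cells. Its level was 831, 908 and 809 CPM in naive follicular B-like cells of Control, the library labelled HHcy and WD, against 253, 280 and 252 in immature and 60.9, 100 and 53.2 in B1-like cells. Counted against Ighm, with which it shares a transcript, Ighd made up 21.5% (20.8% to 22.1%), 24.8% (24.5% to 25.2%) and 20.2% (19.5% to 21.0%) of the UMIs of both genes in naive cells. The share was 2.88%, 3.21% and 2.83% in immature cells and 1.16%, 1.82% and 0.891% in B1-like cells. Some unnamed B cell sub-clusters had high shares too, such as 29.6%, 24.8% and 23.8% in the one led by Hspd1, Ranbp1 and Mif (30, 107 and 14 cells) and 11.7%, 22.6% and 11.9% in the one led by Cxcl2, Cxcl10 and Ccl4 (84, 147 and 70 cells). Single molecules at the 3′ end were counted, so such shares do not depend on gene length. Plasma cell-like cells had left Ighd behind: it had 0 UMIs beside 9473 of Ighm in Control, 10 beside 61436 for the library labelled HHcy and 0 beside 18431 in WD. Zfp318, which encodes a factor needed for Ighd RNA, had 231, 230 and 221 CPM in naive cells and 22.0 to 35.5 in B1-like cells. Immature cells had 97.7, 92.4 and 77.0 CPM, and the sub-cluster led by Hspd1, Ranbp1 and Mif had 108, 131 and 160. In the pooled macrophage/monocyte-, neutrophil- and conventional dendritic cell-like cells 18.0 to 21.0 CPM were read.

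**Figure D2:**
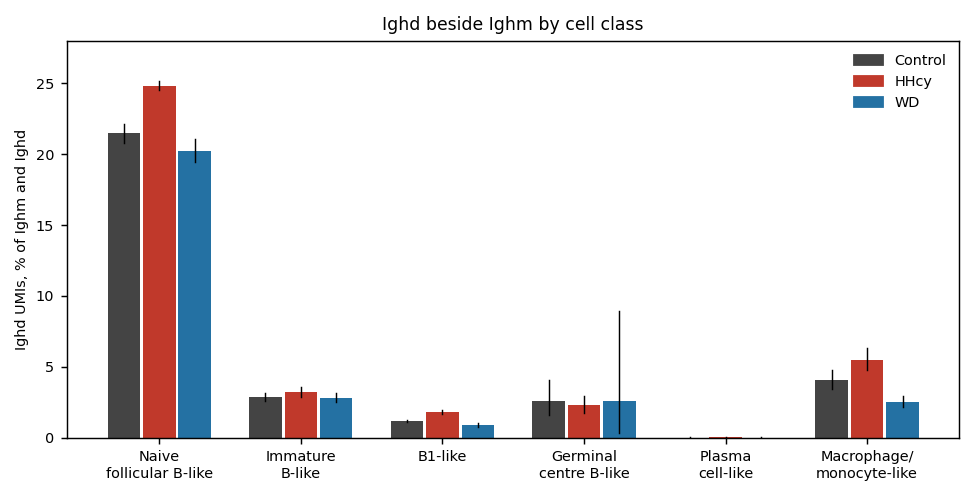
Ighd as a percent of Ighm and Ighd UMIs by cell class, with bars for the 3 libraries and 95% Clopper-Pearson intervals. Naive follicular B-like cells stand at 20.2% to 24.8%, immature, B1- and germinal centre B-like cells at 3.21% or less, and plasma cell-like cells at 0.02% or less.

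Over all B cell-like cells Ighd looked higher with HHcy, at 619 CPM against 260 in Control and 311 in WD, and its share of Ighm and Ighd was 14.7% against 5.37% and 5.69%. The mix of subsets differed as well, since naive cells were 66.3% of B cell-like cells in the library labelled HHcy, 29.1% in Control and 35.6% in WD. When each library was given the same mix of subsets, the shares were 11.4%, 9.64% and 8.71%, and the log2 ratio of Ighd to Control fell from 1.25 to 0.23. Within naive cells alone the log2 ratio was 0.13 (0.07 to 0.18), within B1-like cells 0.72 (0.57 to 0.88) and within immature cells 0.15 (-0.08 to 0.38). Ighm over all B cell-like cells showed the reverse, with 3578 CPM labelled HHcy against 4578 in Control, a log2 ratio of -0.36, and -0.15, 0.06 and -0.01 within the same 3 subsets.

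Cells that do not make antibody also held reads of these genes, and more of the switched ones in the library labelled HHcy. In the pooled macrophage/monocyte-, neutrophil- and conventional dendritic cell-like cells (2518, 1889 and 3309 cells), Ighm had 180, 244 and 178 CPM in Control, HHcy and WD. Ighg1 had 1.48, 28.3 and 0 CPM there, Ighg2c 6.07, 44.5 and 5.00, Ighg3 0.615, 11.7 and 0.186, and Jchain 2.42, 16.3 and 2.90. Of 8 genes with enough UMIs, 7 were at least 2-fold higher in these cells of the library labelled HHcy than in Control (every one but Ighm), where 2.37% of all genes tested were called higher by this rule. The rule called a gene where the ratio was at least 2-fold, its interval left out no change and both libraries together held at least 20 UMIs. Of the 9 genes' UMIs in these cells of the library labelled HHcy, Ighm made up 60.5%, Ighg2c 11.0% and Ighg1 7.01%, against 44.7%, 15.2% and 6.44% over all its barcodes. In WD, 0 of 8 genes were called higher there (1.52%) and 2 lower (Ighg3 and Ighg1; 1.6%). The T cell-like cells were kept out of this pool, a choice made after their values were seen, because 1 WD barcode among them held 2951 of 2961 Ighg2b and 356 of 361 Jchain UMIs, with 11 of 13 plasma cell markers.

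In the library labelled HHcy, switched reads in naive B cells stood near the level of cells that do not make antibody. Naive follicular B-like cells of the library labelled HHcy had 32.7 CPM of Ighg1 against 2.39 in Control, 50.1 of Ighg2c against 6.12, 27.7 of Ighg2b against 10.9, 22.4 of Igha against 6.12 and 16.7 of Jchain against 2.93. These 5 of 8 genes were called higher, where 0.888% of all genes tested were, and none was called lower (1.47%). In macrophage/monocyte-like cells, 6 of 8 were called higher by the same rule (background 1.43%) and 0 lower (1.21%): Ighg1 had a log2 ratio of 4.33 there and 3.77 in naive cells, Ighg2c 2.83 and 3.03, and Jchain 2.67 and 2.51. Within the library labelled HHcy, naive cells had 1.16 times (1.02 to 1.31) the Ighg1 level of the pooled myeloid cells, 1.13 times (1.02 to 1.24) the Ighg2c level and 1.02 times (0.868 to 1.21) the Jchain level. Ighm, by contrast, was 11.3 times (10.9 to 11.6) the myeloid level in the same cells. The switched genes with UMIs and Jchain in these naive cells lay between 1.02 and 1.47 times the myeloid level, with Ighg3 the highest. How much of these reads is expression was not tested. In Control and WD, Ighg2b in naive cells stood farther above the myeloid level, at 3.13 and 3.11 times. Ighg3 was at 23.8 (13.3 to 45.4) and 54.7 (23.1 to 149) times the myeloid level, which was low there. Igha had 6.12 against 3.49 CPM in Control and 8.61 against 4.89 in WD. Ighg2c in Control (6.12 against 6.07 CPM) and Jchain in WD (2.74 against 2.90) stood near the myeloid level. In WD, 0 of 6 genes were called higher (0.868%) and 0 lower (0.673%) in naive cells, and in macrophage/monocyte-like cells 0 of 8 were higher (1.65%) and 2 lower (Ighg3 and Ighg1; 1.26%).

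**Figure D3:**
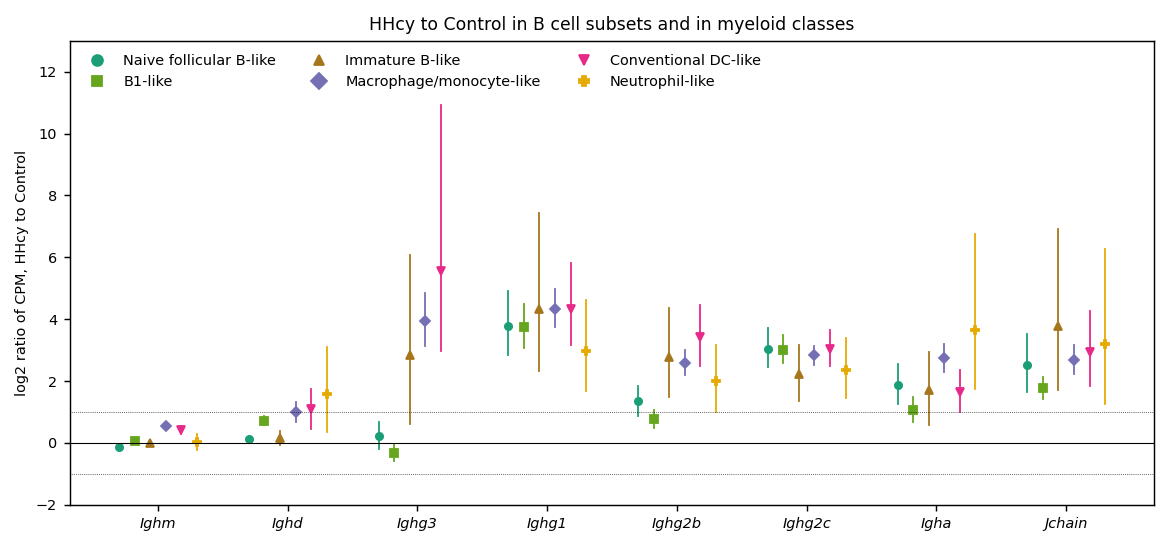
Log2 ratio of CPM, HHcy to Control, for 8 genes in 3 B cell subsets and 3 myeloid classes, with 95% exact binomial intervals and dotted lines at a 2-fold change; Ighg3 in neutrophil-like cells has no point because Control held 0 UMIs. The points of Ighg1, Ighg2c, Igha and Jchain lie above the upper dotted line in B cell subsets and myeloid classes alike, while Ighm stays within the dotted lines in all 6 classes.

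Over all B cell-like cells, 3 of 8 genes were called higher in the library labelled HHcy than in Control (Ighd, Ighg1 and Ighg2c; background 1.5%) and 1 was called lower (Igha; background 3.14%). Ighg1 had 34.2 CPM against 5.47 (log2 ratio 2.64, 2.36 to 2.94) and Ighg2c 50.6 against 10.1 (2.33, 2.11 to 2.55), both close to their myeloid levels in the library labelled HHcy. Igha had 35.0 against 127 CPM (log2 ratio -1.86), but in Control a single cell held 2190 of its 2532 UMIs, and without the 10 richest cells of each library the ratio was 1.61. In WD, 0 of 8 genes were called higher than in Control (background 1.11%) and 2 lower (1.41%): Ighg1, with 2 UMIs against 109, and Igha, at 40.3 CPM, whose log2 ratio of -1.65 became 0.84 without those cells. Median log2 ratios of the 8 genes were -0.23 for HHcy and -0.13 for WD, against -0.03 and 0.00 over all genes tested in B cell-like cells. Both ratios share the Control library.

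Ighg3 in B1-like cells was above the myeloid level in every library, as it was in naive cells (1.47 times, 1.23 to 1.76, for the library labelled HHcy). In B1-like cells it had 29.4 CPM in Control, 23.7 for the library labelled HHcy and 20.9 in WD, which was 47.8 times (28.6 to 86.5), 2.02 times (1.64 to 2.49) and 112 times (52.5 to 287) the myeloid level. Ighg2b in the same cells was at 4.96, 1.27 and 2.5 times that level. Ighg2c stood at 0.757, 0.834 and 1.13 times that level. Relative to Control, 4 of 8 genes were called higher in B1-like cells labelled HHcy (Ighg1, Ighg2c, Igha and Jchain; background 0.895%) and 0 lower (0.979%). In WD, 2 were higher (Igha and Jchain; 0.921%) and 1 lower (Ighg1, 0 UMIs against 20; 0.816%). Jchain had 8.92, 30.2 and 197 CPM in B1-like cells, and in WD 1 cell held 837 of the 903 UMIs. In immature cells 5 of 7 genes were called higher in the library labelled HHcy (1.04%) and 0 of 4 in WD (0.881%), with none lower in either (0.936% and 1.13%). All 5 (Ighg1, Ighg2b, Ighg2c, Igha and Jchain) were at 0.995 to 1.24 times the myeloid level of that library.

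Taken 1 cell at a time, nearly all B cells were IgM cells. A cell was called switched when its leading gamma, epsilon or alpha gene had at least 3 UMIs and more than Ighm, and unswitched when Ighm had at least 3 and was not exceeded. Switched cells were 58 of 2294 B cell-like cells in Control (2.53%, 1.93% to 3.26%), 51 of 3783 in the library labelled HHcy (1.35%, 1.01% to 1.77%) and 24 of 1284 in WD (1.87%, 1.2% to 2.77%). In the pooled myeloid cells the same rule gave 2 of 2518, 33 of 1889 (1.75%, 1.21% to 2.44%) and 0 of 3309 cells, at median depths of 8073, 8247 and 9336 UMIs against 7429, 6439 and 6564.5 in B cells. The rule asks for more UMIs than Ighm. Labelled HHcy, the median Ighm count was 19 in B cell-like cells and 1 in the pooled myeloid cells. The myeloid share is thus no measure of the background in B cells. Naive cells gave 0.150%, 0.279% and 0%, B1-like cells 0.963%, 0.373% and 1.01%, and immature cells 0 of 269, 0 of 186 and 0 of 220, which allow up to 1.12%, 1.61% and 1.36% when the limit is set at 3 cells of the total. With each cell thinned to 1000 UMIs and 1 UMI required, the B cell shares were 2.16%, 2.16% and 1.42% and the myeloid shares 1.05%, 10.1% and 1.77%.

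Switched cells were concentrated in 3 small groups of B lineage cells, each above the shares of naive, immature and B1-like cells in every library. Among germinal centre B-like cells, 29 of 51 were switched in Control (56.9%, 42.2% to 70.7%), 15 of 36 in the library labelled HHcy (41.7%, 25.5% to 59.2%) and 3 of 6 in WD (11.8% to 88.2%), with intervals that overlap. Ighg2b led in 24 of the 29 Control cells, and in 6 of the 15 labelled HHcy, where Ighg1 and Igha led in 4 each. Jchain was also present in this group, at 351, 604 and 313 CPM. An unnamed B cell sub-cluster led by Ly6c2, Rgs1 and Slpi had 12 of 30, 22 of 46 and 15 of 28 switched cells (40.0%, 47.8% and 53.6%), spread over Ighg3, Ighg2b, Ighg2c and Igha in every library. Its Ighg2b level was similar in the 3 libraries, at 503, 554 and 514 CPM, while its Igha level of 6961 CPM in Control rested on 1 cell with 2190 of 2380 UMIs. An unnamed cycling cluster led by Hist1h2ap, Pclaf and Mzb1 had 7 of 29, 8 of 45 and 5 of 17 switched cells (24.1%, 17.8% and 29.4%), in which Ighg2c reached 1132, 3403 and 12744 CPM. Single cells held 83.9%, 61.5% and 63.9% of those Ighg2c UMIs.

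**Figure D4:**
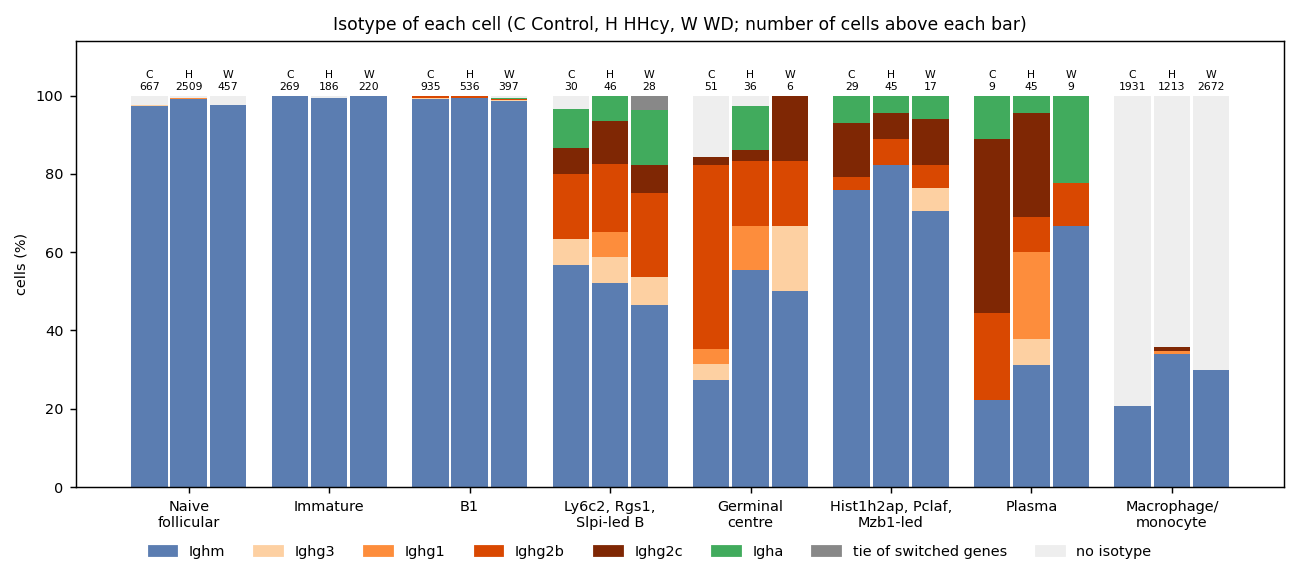
Share of cells by leading heavy-chain constant gene in 7 B lineage groups and in macrophage/monocyte-like cells, with 1 bar per library and the number of cells above it; pale grey marks cells with no call. Naive, immature and B1-like cells are almost entirely Ighm cells. In macrophage/monocyte-like cells 20.6% to 34.0% pass the Ighm rule, and the source of their Ighm reads was not tested.

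Each plasma cell-like cell was committed to 1 constant gene. In all 63 cells the leading gene held at least 93.9% of the heavy-chain constant UMIs, with a median of 99.9%, on 238 to 8731 such UMIs per cell. Immunoglobulin genes and Jchain made up 16.6% to 66.8% of a cell's UMIs, with a median of 53.0%. Xbp1, a transcription factor of the secretory programme, was detected in every one of these cells, and Sdc1, the plasma cell surface marker CD138, in 88.9% of each library. Markers of macrophages/monocytes summed to 1395, 4082 and 1648 CPM in plasma cell-like cells, against 345, 370 and 596 in B cell-like cells. This sum did not go with Lyz2, a gene at 8537, 14535 and 9013 CPM in macrophage/monocyte-like cells. Plasma cell-like cells had 239.9, 93.2 and 102.7 CPM of Lyz2, against 113.9, 148.1 and 175.4 in B cell-like cells, so it was higher only in Control. Ly6c2 was among the leading genes of the plasma cell-like cluster and of a macrophage/monocyte-like cluster. The source of the summed level and its part in the results were not tested.

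The 3 libraries did not hold the same mix of plasma cell isotypes. Control had 4 Ighg2c, 2 Ighg2b, 2 Ighm and 1 Igha cell. Labelled HHcy were 14 Ighm, 12 Ighg2c, 10 Ighg1, 4 Ighg2b, 3 Ighg3 and 2 Igha cells. WD had 6 Ighm, 2 Igha and 1 Ighg2b cell. Ighg1 and Ighg3, the gamma genes that lead in 10 and 3 of the 45 cells labelled HHcy, led in 0 of 9 cells of either other library, a count that allows a share of up to 33.3% by the same limit of 3 cells. Switched cells were 77.8% (40.0% to 97.2%), 68.9% (53.4% to 81.8%) and 33.3% (7.49% to 70.1%) of plasma cell-like cells, and these intervals overlap. Among all barcodes with 12 or more plasma cell markers, doublets included, they were 7 of 10, 58 of 89 and 8 of 14, and Ighg2c led in 21 of the 89 and 3 of the 14. This wider count was chosen after the data were seen.

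Levels over the plasma cells follow from those few cells. Ighg2c had 88877 CPM in Control (4949, 3667, 2725 and 513 UMIs in its 4 cells), 34270 for the library labelled HHcy and 272 in WD, where 1 IgA cell held 60 of 61 UMIs. Ighg1 was at 0 UMIs in Control and WD and at 20836 CPM labelled HHcy, from 10 cells with 517 to 4980 UMIs, a log2 ratio of at least 9.86 against 3 UMIs in Control. Igha had 16810, 9089 and 40956 CPM. By the 2-fold rule, 2 of 7 genes were higher in the library labelled HHcy (Ighg3 and Ighg1; background 3.34%) and 1 lower (Ighg2c; 4.88%), and in WD 2 of 6 were higher (Ighg3 and Igha; 7.5%) and 1 lower (Ighg2c; 6.86%). With 9 cells in a library, 1 cell of another isotype moves such a level widely. Such levels also depend on which cells got the plasma cell name. Plasma cell-like cells held 89.1%, 37.9% and 0.610% of all Ighg2c UMIs in Control, the library labelled HHcy and WD. In WD, 5495 of 10004 UMIs lay in the cycling cluster led by Hist1h2ap, Pclaf and Mzb1, and 39.9% in barcodes left out as doublets.

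**Figure D5:**
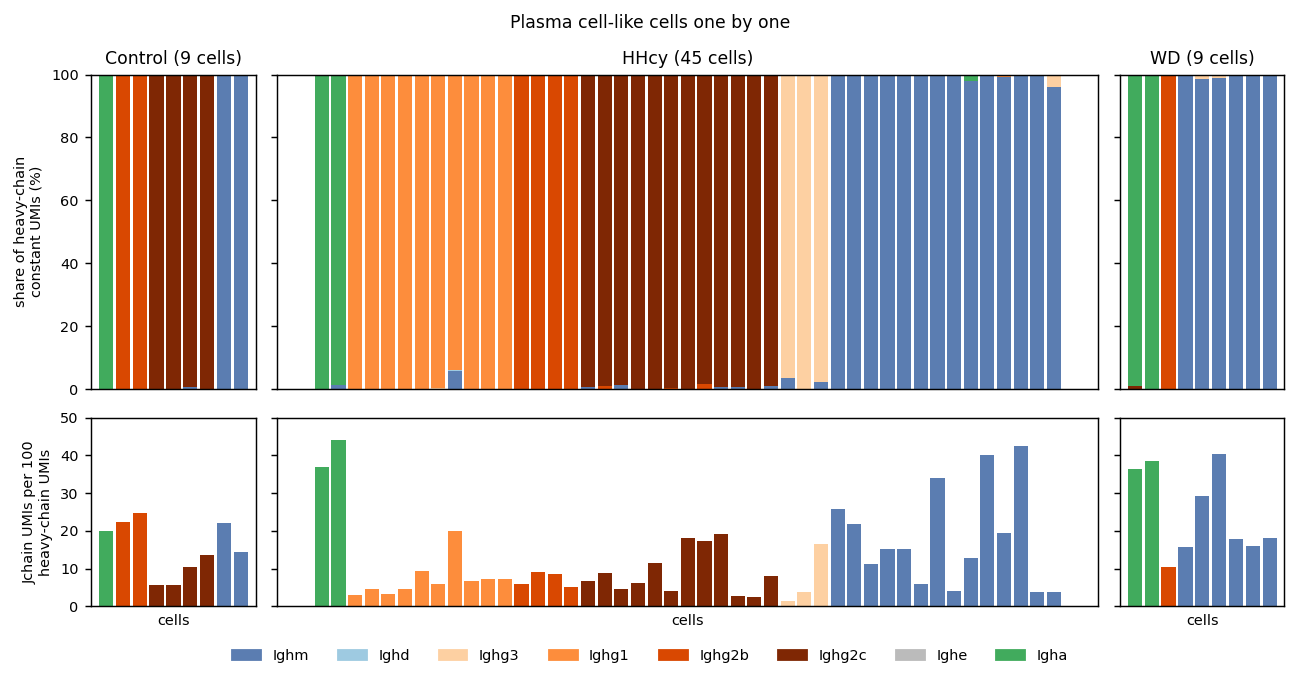
The 63 plasma cell-like cells, 1 bar each: above, the share of heavy-chain constant UMIs by gene (%); below, Jchain UMIs per 100 heavy-chain constant UMIs, coloured by the leading gene. Nearly every bar above is a single colour, and the bars below are tallest in Igha and several Ighm cells.

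Jchain was present in every plasma cell-like cell, whatever its isotype, with 8 to 2338 UMIs. Relative to the heavy chain and pooled over the libraries, it was most abundant in the 5 Igha cells, with a median of 37.0 Jchain UMIs per 100 heavy-chain UMIs and a range of 19.9 to 44.0. The 22 Ighm cells had a median of 16.9 (3.68 to 42.6). Medians of the gamma cells were lower: 9.13 in 7 Ighg2b cells (5.16 to 24.8), 7.35 in 16 Ighg2c cells (2.59 to 19.0), 6.31 in 10 Ighg1 cells (2.91 to 19.99) and 3.8 in 3 Ighg3 cells (1.49 to 16.6). The ranges of all 6 isotypes overlap one another, apart from Igha, whose lowest cell lies above the highest Ighg2c and Ighg3 cells. The order did not hold in Control, where the 2 Ighg2b cells had the highest median (23.6), above the Igha cell (19.9) and the 2 Ighm cells (18.3). Medians of the Igha and Ighm cells were 40.5 and 15.2 for the library labelled HHcy and 37.5 and 18.0 in WD.

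Minor reads of a second constant gene were few and uneven. In switched cells labelled HHcy, Ighm reached 232 UMIs in an Ighg3 cell, 84 in an Ighg1 cell and 72 in an Ighg2c cell. It reached 56 in an Igha cell and 7 in an Ighg2b cell. Median Ighm counts of these groups were 104, 1, 3, 30 and 0. Of the 6 WD Ighm cells, 3 held 13, 57 and 36 Ighg3 UMIs and the others 0, in a library whose 3309 myeloid cells held 7 in all. Labelled HHcy, 2 Ighg2c cells held 49 and 45 Ighg2b UMIs, a pair of genes with shared sequence, and the other 10 held 0 to 3. One Ighm cell of the same library held 85 Igha UMIs beside 3945 of Ighm. Doublets of 2 plasma cells could not be removed by the marker rule, and their part in these reads was not tested.

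Ighe, the constant gene of IgE, was nearly absent. It had 5, 13 and 4 UMIs in the 3 libraries, most of the 13 in barcodes left out as doublets. Germinal centre B-like cells held 3 in Control and 2 in the library labelled HHcy, and the remainder in used cells lay in the unnamed Ly6c2-led and Hist1h2ap-led groups. No plasma cell-like or myeloid cell held any, and no cell was called IgE by the isotype rule.

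Plasmacytoid dendritic cell-like cells had the highest Ighm level among the named classes outside the B lineage. Their Ighm was 1525 CPM (1089 to 2076, 3 cells), 1480 (1372 to 1594, 38 cells) and 1426 (1163 to 1731, 6 cells), which was 8.47, 6.06 and 7.99 times the pooled myeloid level. Every cell had at least 1 Ighm UMI, and at least 3 were held by 2 of 3, 38 of 38 and 6 of 6 cells. Their Ighd, at 38.1, 23.5 and 14.0 CPM, rested on 1, 11 and 1 UMIs, and each switched gene and Jchain in the 38 cells labelled HHcy was at 0.528 to 0.785 times the myeloid level. Markers of B cells were raised there too, with 7, 13 and 8 of 13 detected and a summed level of 1601, 3922 and 1831 CPM against 166, 246 and 111 in the pooled myeloid cells. Ms4a1, the B cell surface marker CD20, was at 0 in the 9 cells of Control and WD and in 10.5% of those labelled HHcy. Cd79a was detected in 33.3%, 28.9% and 33.3% of the plasmacytoid dendritic cell-like cells, against 12.4%, 18.5% and 10.0% of the pooled myeloid cells.

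By pattern over 49 combinations of class and library with at least 20 cells, the genes most like Ighm among 6003 tested were Mzb1 (Pearson r = 0.929), Cd79b (0.911), Pou2af1 (0.901), Fcrla (0.887) and Gm30211 (0.882). Those most like Ighd were Cr2 (0.896), Pax5 (0.888), Fcmr (0.884), Fcrl1 (0.883) and Ralgps2 (0.871). Jchain was nearest to Sec11c (0.732), Cd2bp2 (0.701), Eaf2 (0.689), Mzb1 (0.637) and Ube2j1 (0.615), and Ighg2c to Cd2bp2 (0.637), Sec11c (0.613), Srp9 (0.589), Edem1 (0.567) and Dusp4 (0.532). Units of a library share depth and free RNA, so these values describe the libraries.

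Of 36 other genes of antibody production, 1 was called higher in B cells of the library labelled HHcy than in Control (background 1.5%) and 3 lower (3.14%). In WD, 0 were higher (1.11%) and 0 lower (1.41%) by the same rule. Zfp318 was the gene called higher, with 160 CPM against 78.6 (log2 ratio 1.02), while within the naive subset it had the 230 and 231 CPM given above. The 3 lower genes were Hnrnpll, an RNA-binding regulator of splicing in lymphocytes (0.759 against 2.11 CPM, -1.47), Tent5c, a poly(A) polymerase of secretory cells (63.3 against 158, -1.32), and Prdm1, the plasma cell regulator Blimp-1 (12.9 against 27.5, -1.09). Hnrnpll rested on 23 against 42 UMIs. In the pooled myeloid cells, labelled HHcy and in Control, Hnrnpll had 31.3 and 43.9 CPM, Tent5c 56.4 and 90.8, and Prdm1 34.6 and 52.2. The part of free RNA in these B cell levels was not tested. By subset, B1-like cells had 243, 195 and 218 CPM of Tent5c and 45, 43.9 and 26.8 of Prdm1, and naive cells 22.4, 10.6 and 15.3 and 4.79, 2.57 and 1.56. None of the 6 genes of light chains and receptor partners, the 6 of switching and mutation or the 9 of receptors and factors that direct switching was called in either comparison.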

How the data were processed

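The authors deposited raw UMI counts per gene and barcode. Per the file headers the matrices come from Cell Ranger 4.0.0, while the submitters' processing notes list Cell Ranger 2.2.0 and mm10. Libraries were made with Chromium 3′ v3 chemistry per the labels' protocols. From these counts, barcodes with under 200 genes or over 10% mitochondrial UMIs were left out, as were barcodes reaching the marker limit of 2 or more of 5 lineages (7 B cell, 6 T or NK cell, 9 myeloid, 7 neutrophil or 6 stromal markers; 12 of 13 plasma cell markers count as B lineage). Clusters came from 2000 variable genes, 30 principal components, 20 neighbours and the Leiden algorithm at resolution 1.0 (0.5 for B cell subsets, seed 1), with 393 immunoglobulin and Jchain rows kept out. A class name needed 3 markers in 25% of cells. The members, marker lists and pathway lists were chosen with earlier results of these data known. UMIs were summed per class and library and divided by the class total (CPM). No test between groups was possible with 1 library each. All 9 genes are named, and for Ighm, Ighd, Jchain and Ighg2c the 5 genes outside the immunoglobulin loci with the highest correlation of log2(CPM + 1), among genes averaging over 20 CPM. Of the other antibody genes, those past the 2-fold rule in B cells are named, up to 10. The ratio rule was checked on simulated counts for HHcy to Control in B cell-like cells: over 11181 genes it called 100% of 4-fold changes in each direction and 0.0911% of unchanged genes. The simulated counts held no variation between cells, so these rates do not cover genes with most UMIs in single cells, such as Igha. Python 3.11.15, scipy 1.17.1, scanpy 1.11.5 and leidenalg 0.10.2 were used. UMI totals per class set the precision, and intervals cover counting error only.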

Additional observations from a re-analysis of the deposited data

How the results depend on the processing

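No paired analysis was possible because each group is 1 library. Of the counts and shares recomputed, 84 kept their value within the limits set and 22 moved. Of values of single genes, 213 were the same, 123 moved and 3 changed sign. With a limit of 20% mitochondrial UMIs, 1 gene was called higher in WD naive cells (0 before) and the WD share of Ighd was 5.91%. That setting gave no plasma cell-like cluster, and so no value. With doublets kept, WD B cells had 2 genes higher and 1 lower, naive and macrophage/monocyte-like cells 1 higher each, and the Igha ratio of WD to Control was 2.22. At resolution 2.0, 2 genes were lower in B cells labelled HHcy, 1 was higher in WD B cells and 1 in WD naive cells, the switched share of Control was 1.71% and the Ighd share labelled HHcy 15.0%. With cells thinned to 1000 UMIs, 0 genes were lower in B cells labelled HHcy, 1 in WD B cells and 0 in WD macrophage/monocyte-like cells, against 2 in the last of these at full depth, and the Ighd ratio of HHcy to Control was 0.94. Without the 10 richest cells, 5 genes were higher and 0 lower in B cells labelled HHcy, 0 were lower in WD macrophage/monocyte-like cells, and the Igha ratios were 1.61 and 0.84. A same mix of subsets gave Ighd shares of 9.64%, 11.4% and 8.71%. Requiring 10 UMIs gave a switched share of 1.92% in Control, and thinning with 1 UMI gave 2.16% labelled HHcy. The cause of these shifts was not tested. The number of plasma cell-like cells, 9 each in Control and WD, limits the precision of their values.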
